A study of Homo sapiens with 20 samples.

Results

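The 10 genes described here encode the cyclins, kinases and inhibitors that govern passage through the G1 phase: the D-type cyclins CCND1, CCND2 and CCND3, the E-type cyclins CCNE1 and CCNE2, the cyclin-dependent kinases CDK2, CDK4 and CDK6, and the inhibitors CDKN1A and CDKN1B. They are 10 of the 19353 genes that have an array probe set naming them alone. Members were chosen by name, as every probe set annotated to exactly 1 of these genes, which gave 25 of 38070 such probe sets. Of the 25, 17 had a mean log2 level above 4.5 in at least 1 group and were tested, and every gene kept at least 1 tested probe set.

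The 20 Affymetrix U133 Plus 2.0 arrays fall into 4 groups of 5 and all used HEK293 cells, a human embryonic kidney line. Per the study's methods, the EGFP-ZFP36 line was made in Flp-In T-REx HEK293 cells. The control cells are called parental HEK293 cells there. Induced cells carry an EGFP-ZFP36 transgene and received 1 µg/ml doxycycline for 16 h. Mock-induced cells are the same line given water in its place. Parental cells have no such transgene and received either doxycycline or water, the latter called parental vehicle here. The transgenic line is 1 stable line, and the cells of several flasks were pooled for each treatment. Induced cells were sorted as GFP-positive, and mock cells were sorted with fluorescent cells left out. Per the study's methods, flasks of this line given doxycycline ended less dense, with more cells rounded or afloat, so the transgene product, the sort gate and cell density cannot be told apart in this comparison. In bulk RNA, fewer cells in a given state and less RNA per cell cannot be told apart either.

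D-type cyclins bind CDK4 or CDK6 in early G1, and these kinases start to phosphorylate the retinoblastoma protein. E-type cyclins then activate CDK2, retinoblastoma phosphorylation is completed, and E2F factors are released to drive S phase genes. CDKN1A (the p21 protein, a target of p53) and CDKN1B (the p27 protein) bind cyclin-CDK complexes and hold them inactive. HEK293 cells were transformed with adenovirus DNA, and the adenoviral E1A protein is known to bind the retinoblastoma family. ZFP36, also called tristetraprolin, binds AU-rich elements in 3′ UTRs and promotes decay of the mRNA.

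The study also mapped ZFP36 contacts on RNA by PAR-CLIP in cells with a FLAG/HA-tagged ZFP36, a line other than the one on the arrays. The 5 sites printed here lie in the 3′ UTRs of CCND3 and CDK6. On the induced arrays these transcripts lay on opposite sides of the mock level, though the CCND3 difference missed the threshold given below. The printed sites are not a full list for the members. Sites in CCNE2 were left out by choice, whether or not the list held any, so CCNE2 cannot be set beside these transcripts. The list of sites was also held only in part, so a member with no site shown is not thereby without one. Each is written 5′ to 3′ in DNA letters on the minus strand of hg19, with coordinates as the study lists them, and capitals mark ATTTA or, where that is absent, TATT.

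CCND3, chr6:41903031-41903052: ctcattttaATTTAttaattg
CDK6, chr7:92236991-92237015: cataaatTATTtcTATTatTATTc
CDK6, chr7:92240551-92240579: ttattataaactcttagatATTTAtata
CDK6, chr7:92240629-92240651: ccaccataattacttaattatg
CDK6, chr7:92240796-92240819: cttcctaatatcataaacaTATT

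The CCND3 site and 1 CDK6 site hold the pentamer AUUUA, which 42.5% of the 1026 3′ UTR sites in the part used also hold. That CDK6 site also holds UAUUUAU, found in 18.0% of those sites. None of the 5 holds the nonamer UUAUUUAUU, which is in 5.17% of the 1026. UAUU, which overlaps some of these longer motifs, was in 4 of the 5 sites and in 77.9% of all, and the remaining CDK6 site held none of the 4 motifs. Only the strand as written was searched, because the contacts are on RNA.

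Array values are GCRMA log2 levels, on which a step of 1 is a doubling, the lowest value is 2.19 and levels under 4.5 lie near background. A probe set was called where limma gave a Bonferroni-adjusted p under 0.01 over 18639 tested probe sets. ZFP36 itself read 5.42 ± 0.49 in induced and 5.36 ± 0.43 in mock arrays (mean ± SD of 5 arrays, exact permutation p = 0.833, two-sided), and 3.45 ± 0.56 in parental vehicle arrays. The sources used here do not say whether its probe set covers the stretch carried by the transgene, so it does not check the induction. Vimentin (VIM) and the neurofilament gene NEFL, both known from HEK293 cells, had group means of 12.10 or more in every group. PAX2, another such marker, was near background outside the induced group. Its means were 4.86 (induced), 2.77 (mock), 2.59 (parental doxycycline) and 2.60 (parental vehicle). The neurofilament gene NEFM averaged 12.27 in parental vehicle, 12.29 in parental doxycycline, 3.87 in mock and 5.81 in induced arrays, so the lines differ in a marker of the cell type. The summed log2 level of the 4 such markers with a probe set (VIM, NEFL, NEFM and PAX2, of 6 listed) ran from 39.0 to 39.9 in induced, 34.1 to 34.6 in mock and 40.1 to 41.3 in parental vehicle arrays. Of 10 blood cell markers 7 had a probe set, and these stayed near the lowest value. Of 10 fibroblast and endothelial markers, 2 were above 4.5, and their summed level was 34.5 to 35.1 in induced and 29.1 to 30.2 in mock arrays. COL3A1 averaged 8.17 in induced and 5.09 in mock arrays, and COL1A1 9.15 and 6.84. In parental doxycycline and parental vehicle arrays COL3A1 averaged 4.58 and 4.90, and COL1A1 8.47 and 8.56, so mock was the lowest group for COL1A1. The defining markers PECAM1, CDH5, VWF, DCN and LUM were at or near the lowest value in all groups. The poly-A spike-in controls read 8.80 ± 0.24 in induced and 8.43 ± 0.18 in mock arrays (exact permutation p = 0.0238), and the 3′ minus 5′ signal of actin was 1.31 ± 0.13 against 1.52 ± 0.14 (exact permutation p = 0.0476). The part of these differences in the results was not tested.

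After induction of EGFP-ZFP36, transcripts of 5 of the 10 genes fell and those of 1 rose, by the brightest probe set of each gene. CCND1 had the largest fall of the members, followed by CCNE2, CDKN1A, CDK6 and CCND2, and CDK4 rose. CCND3, CCNE1, CDK2 and CDKN1B did not pass. Over the 17 tested probe sets, 9 were called lower, 1 higher and 7 neither. Across the array the background was high: 21.8% of all tested probe sets were called lower and 22.1% higher, and by the brightest probe set of each gene the shares were 21.5% and 26.5% of 10834 genes. The median log2 difference of the members' probe sets was −1.0, beside 0.12 over all tested probe sets. Values of induced and mock arrays did not overlap for 16 of the 17, and for 76.9% of all tested probe sets. With the replicate number as a block, CDK4 and all CDK6 calls were lost, while CCND1, CCND2, CCNE2 and CDKN1A each kept a call. With a separate spread for each group the CCND1 and CDK6 calls and that of CCNE2 211814_s_at were lost. Calls below come from the fit with neither, and a log2 difference is always induced minus mock unless another pair is named.

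**Figure D1:**
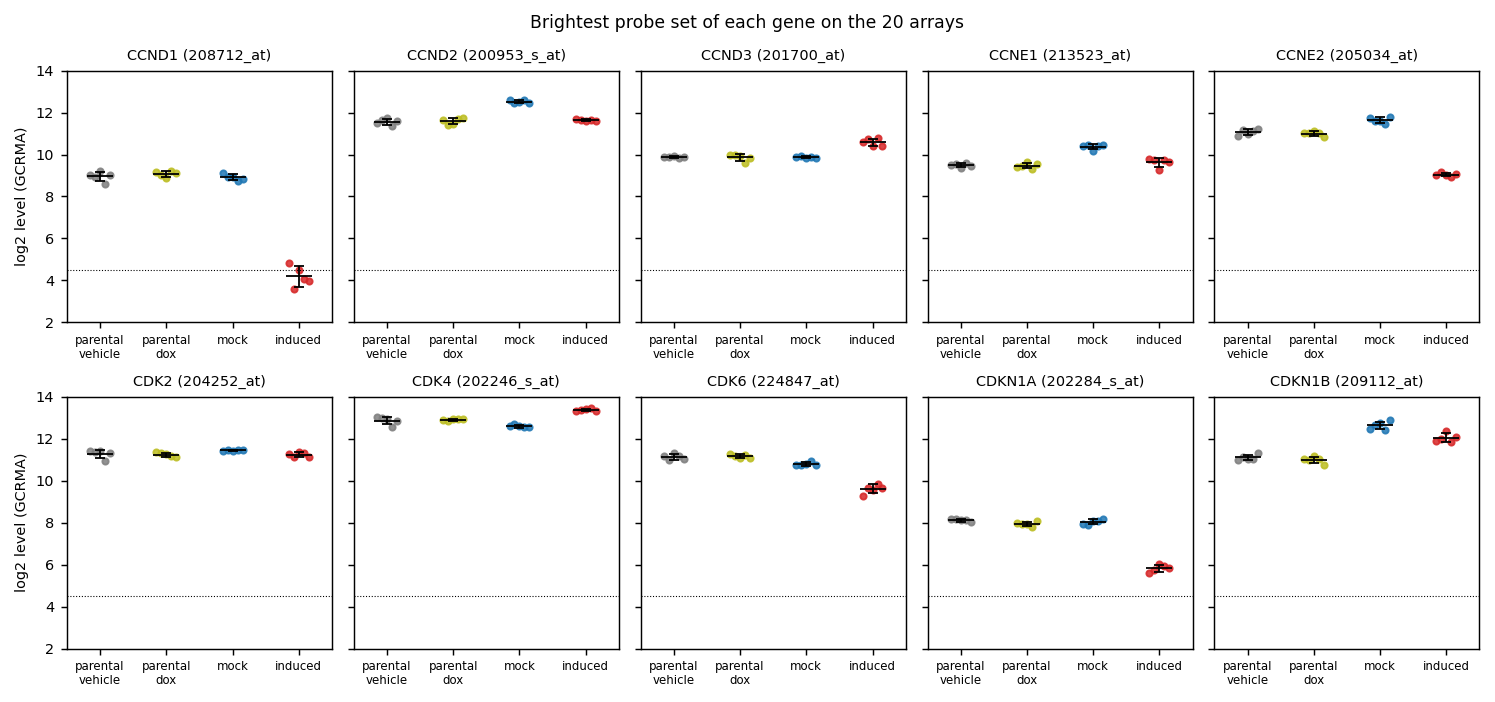
Log2 level (GCRMA, vertical axis) of the brightest probe set of each of the 10 genes in the 4 groups; points are arrays, bars are the mean ± SD of 5 arrays, and the dotted line is the filter at 4.5. CCND1 fell to about this line in induced arrays, and CDK4 and CCND3 lay above mock there. CCND2, CCNE1, CCNE2 and CDKN1B were highest in mock arrays, without overlap with another group.

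Among the D-type cyclins, CCND1 fell furthest. Its probe set 208712_at read 4.84, 3.58, 4.51, 4.04 and 3.98 in induced and 9.13, 8.94, 8.93, 8.75 and 8.81 in mock arrays. The parental arrays read 9.18, 9.0, 8.87, 9.20 and 9.11 with doxycycline and 9.01, 8.93, 9.19, 8.61 and 9.03 with vehicle. The induced arrays were low in all 5 cases and the other 3 groups overlapped. The log2 difference was −4.72 (SE 0.20, adjusted p = 3.41e-06), a 26.4-fold lower level and the 19th lowest difference of the 18639. Several induced values lay under 4.5, so the size of this fold depends on how background was removed. The induced arrays also varied more than the mock ones, and with a separate spread for each group the adjusted p was 0.165.

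The other CCND1 probe set, 208711_s_at, gave a smaller fall. It read 5.01, 4.62, 4.70, 4.57 and 4.81 in induced arrays and 7.95, 7.27, 7.77, 7.46 and 7.36 in mock arrays. The difference was −2.82 (SE 0.14, adjusted p = 1.21e-05), or 7.05-fold lower, with an adjusted p of 0.0111 from separate spreads. Probe sets whose name ends in _s_at can match more than 1 transcript, and this one was also the more variable in parental cells, where it ranged from 7.12 to 8.87 with doxycycline and from 6.80 to 8.47 with vehicle.

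CCND2, a close relative of CCND1, fell by less and stayed a bright signal. Probe set 200953_s_at read 11.68, 11.64, 11.60, 11.66 and 11.60 in induced arrays and 12.61, 12.48, 12.49, 12.58 and 12.47 in mock arrays. The difference was −0.89 (SE 0.05, adjusted p = 2.99e-05), a 1.85-fold lower level. Arrays of each group lay close together, and the groups were well apart. The dimmer probe set 200951_s_at read 4.84 to 5.86 in induced and 6.03 to 6.68 in mock arrays, with the same sign (−0.80, SE 0.20) but no call (adjusted p = 1). The 200952_s_at and 231259_s_at probe sets did not pass the filter, with group means from 2.19 to 2.78 and from 3.72 to 4.16.

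CCND3 lay on the opposite side. Probe set 201700_at read 10.58, 10.72, 10.42, 10.79 and 10.40 in induced arrays and 9.86, 9.94, 9.84, 9.89 and 9.81 in mock arrays. Both parental groups sat with the mock arrays, at 9.60 to 9.97 with doxycycline and 9.81 to 9.94 with vehicle. The induced arrays were the highest of the 20, but the difference of 0.71 (SE 0.08) missed the threshold (adjusted p = 0.0528). It passed when all 20 arrays shared 1 estimate of the spread (adjusted p = 4.43e-04). Centred on the hybridization controls the difference was 0.60, and centred on the poly-A controls it was 0.35. The other CCND3 probe set, 1562028_at, was at the lowest value on all arrays.

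The E-type cyclins, which activate CDK2, both had negative differences, but only CCNE2 was called. CCNE2 probe set 205034_at read 9.04, 9.17, 9.01, 8.94 and 9.06 in induced arrays and 11.76, 11.62, 11.62, 11.47 and 11.80 in mock arrays. The difference of −2.61 (SE 0.07, adjusted p = 2.50e-08) had the smallest p of the 17, and the level was 6.12-fold lower. Parental arrays lay between these groups but near the mock ones, at 10.83 to 11.11 with doxycycline and 10.90 to 11.23 with vehicle. The dimmer CCNE2 probe set 211814_s_at read 6.35 to 6.71 in induced arrays and 7.82 to 8.63 in mock arrays, a fall of 1.61 on the log2 scale (SE 0.14, adjusted p = 0.00435). That call was kept only when mock replicate 1 or mock replicate 5 was the array left out; over all 10 such fits the adjusted p ran from 8.12e-04 to 0.0302. It was lost with the replicate block too (adjusted p = 0.0652).

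CCNE1 probe set 213523_at read 9.78, 9.73, 9.28, 9.72 and 9.62 in induced arrays and 10.42, 10.45, 10.18, 10.39 and 10.43 in mock arrays. All induced arrays were below all mock arrays, yet the difference of −0.75 (SE 0.10) was not called (adjusted p = 0.217). It passed with all 20 arrays in the fit (adjusted p = 0.00112) and with centring on the poly-A controls, where it was −1.11. The parental arrays, at 9.32 to 9.65 with doxycycline and 9.38 to 9.58 with vehicle, overlapped the induced ones and not the mock ones. Probe set 242105_at of CCNE1 was at the lowest value throughout.

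**Figure D2:**
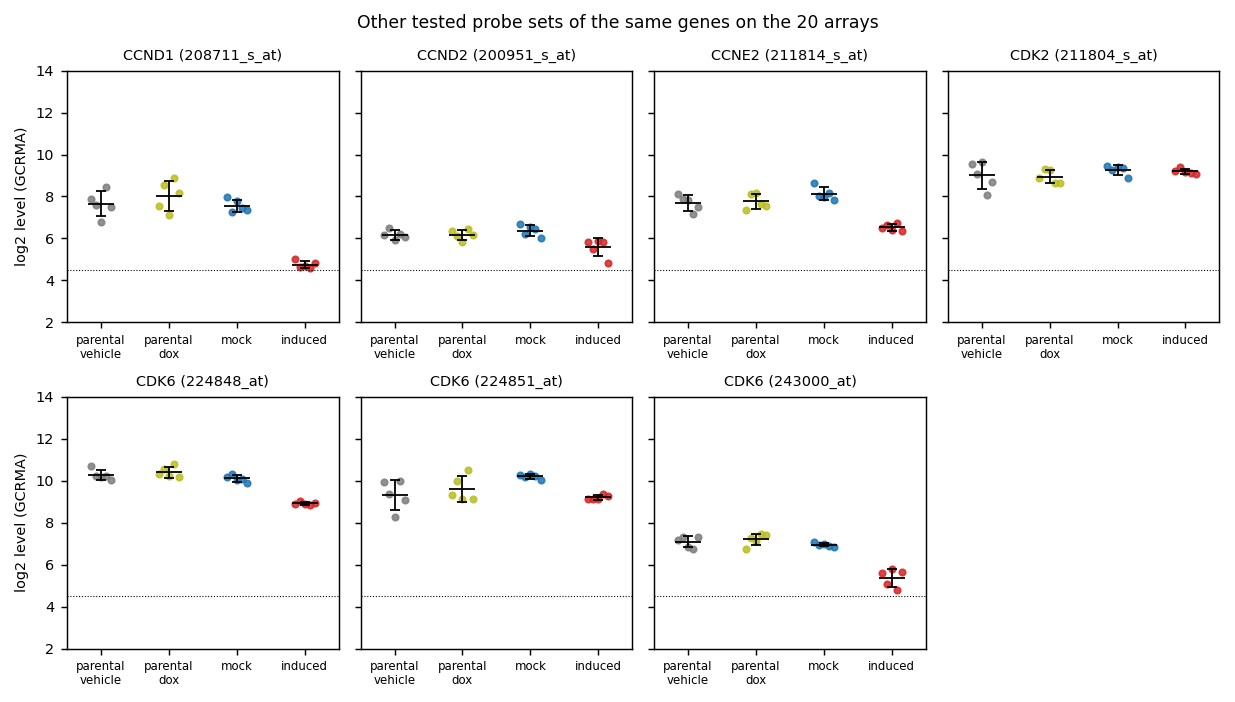
Log2 level (GCRMA, vertical axis) of the other 7 tested probe sets of CCND1, CCND2, CCNE2, CDK2 and CDK6 in the 4 groups, with arrays as points, the mean ± SD of 5 arrays as bars and the filter at 4.5 dotted. All except the CDK2 probe set were lower in induced than in mock arrays without overlap, and parental arrays spread widely for CCND1 208711_s_at and CDK6 224851_at.

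The 3 kinases did not move as a group. CDK6 fell, CDK4 rose and CDK2 stayed within small differences. For CDK6, 224847_at read 9.29, 9.67, 9.55, 9.87 and 9.68 in induced arrays and 10.74, 10.75, 10.82, 10.95 and 10.73 in mock arrays, a difference of −1.19 (SE 0.10, adjusted p = 0.00268). Probe set 224848_at read 8.83 to 9.06 against 9.90 to 10.32 and gave −1.19 (SE 0.08, adjusted p = 2.89e-04). Probe set 224851_at read 9.12 to 9.38 against 10.04 to 10.33 and gave −1.0 (SE 0.07, adjusted p = 8.32e-04). These 3 values amount to falls of 2.00-fold to 2.28-fold and differ by little more than their errors. With the replicate block none of the 3 was called, with adjusted p of 0.0359, 0.0101 and 0.169 in the same order, and with separate spreads the adjusted p was 0.0141 or higher. The call of 224847_at was kept only when induced replicate 1 or induced replicate 4 was the array left out, with adjusted p from 0.00128 to 0.0205 over the 10 fits. The dimmer 243000_at read 5.60, 5.10, 5.80, 4.78 and 5.65 against 6.86 to 7.07, with a larger difference and error (−1.57, SE 0.17) that did not pass (adjusted p = 0.0471). The 207143_at, 231198_at and 235287_at probe sets of CDK6 did not pass the filter, with group means from 2.19 to 3.46.

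CDK4, the other partner of the D-type cyclins, was among the brightest signals of the members and rose. Probe set 202246_s_at read 13.34, 13.40, 13.42, 13.46 and 13.33 in induced arrays and 12.63, 12.72, 12.61, 12.55 and 12.55 in mock arrays. The difference was 0.78 (SE 0.05, adjusted p = 2.72e-04), or 1.72-fold higher. Parental arrays fell between, at 12.85 to 12.97 with doxycycline and 12.58 to 13.02 with vehicle. The call was lost when arrays were centred on the hybridization controls (0.66, adjusted p = 0.0130) or on the poly-A controls (0.42, adjusted p = 1), and the sign was kept in both. It was also lost with the replicate block (adjusted p = 0.0578). These centrings lower every difference by a constant: the median over all tested probe sets went from 0.12 to 0.00 and to −0.24, and relative to that median CDK4 lay the same distance above it each time. The split of all calls went from 4072 lower and 4126 higher to 4312 and 3450, and to 5807 and 2399.

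CDK2, the partner of the E-type cyclins, had the smallest differences. Probe set 204252_at read 11.29, 11.14, 11.35, 11.34 and 11.13 in induced arrays and 11.42, 11.46, 11.44, 11.49 and 11.45 in mock arrays, a difference of −0.20 (SE 0.06, adjusted p = 1). Probe set 211804_s_at read 9.05 to 9.40 and 8.88 to 9.46, the only tested probe set of the members whose induced and mock arrays overlapped (−0.08, SE 0.11). The remaining CDK2 probe set, 211803_at, was at the lowest value on all arrays.

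Both inhibitors were lower in induced arrays, and only CDKN1A was called. CDKN1A has 1 probe set, 202284_s_at, which read 5.61, 5.73, 6.02, 5.96 and 5.82 in induced arrays and 7.96, 7.91, 8.09, 8.09 and 8.20 in mock arrays. The parental arrays read 7.97, 7.96, 7.96, 7.81 and 8.08 with doxycycline and 8.18, 8.17, 8.11, 8.11 and 8.02 with vehicle. Induced arrays were thus low in all 5 cases, and the mock arrays overlapped both parental groups. The difference was −2.22 (SE 0.09, adjusted p = 1.29e-06), or 4.66-fold lower, and it passed under all alternatives run for it, with the replicate block, both control centrings and each array left out among them.

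CDKN1B, through probe set 209112_at, read 11.92, 12.01, 12.39, 11.85 and 12.09 in induced arrays and 12.48, 12.64, 12.74, 12.44 and 12.89 in mock arrays. The highest induced array lay just under the lowest mock array, and the difference of −0.59 (SE 0.12) was not called (adjusted p = 1). It passed only with poly-A centring (−0.95, adjusted p = 0.00217) among the alternatives that keep the Bonferroni threshold. Both groups of this line were above both parental groups, which read 10.76 to 11.16 with doxycycline and 10.99 to 11.31 with vehicle.

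Doxycycline alone was examined in the parental cells. None of the 17 probe sets was called by limma between parental doxycycline and parental vehicle arrays, as was the case for all 18639 (0% called, 414 at an unadjusted p under 0.05). Among the members, 1 was at an unadjusted p under 0.05, CDKN1A, with a log2 difference of −0.16 (SE 0.06). Differences ran from −0.16 for CDKN1A to 0.39 for the variable CCND1 208711_s_at (SE 0.38), and the arrays of the 2 groups overlapped for all 17. The share with overlap among all tested probe sets was not counted for this pair. For CCND1 208712_at the value was 0.12 (SE 0.11), for CCNE2 205034_at −0.08 (SE 0.08), for CDK4 0.05 (SE 0.08) and for CDK6 224847_at 0.03 (SE 0.07).

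The interaction of doxycycline with cell line tests whether the drug's difference was the same in both lines. It was called for 8 of the 17 probe sets, 7 lower and 1 higher with the transgene, beside 20.6% and 19.1% of all tested probe sets. Those lower were both CCND1 probe sets (−4.84, SE 0.24, and −3.20, SE 0.41), CCND2 200953_s_at (−0.91, SE 0.10), CCNE2 205034_at (−2.54, SE 0.11), CDKN1A (−2.06, SE 0.11) and CDK6 224847_at and 224848_at (−1.22, SE 0.13, and −1.33, SE 0.17). CDK4 was the one higher (0.73, SE 0.10, adjusted p = 0.00673). CDKN1A, CCNE2 205034_at and CCND1 208712_at had the smallest adjusted p, at 1.26e-09, 2.20e-11 and 5.65e-10. CCND3 (0.73, adjusted p = 0.0471) and CDK6 243000_at (−1.69, adjusted p = 0.0230) missed the threshold. The interaction of 243000_at passed without parental doxycycline replicate 1 (adjusted p = 0.00804) or without induced replicate 3 (adjusted p = 0.00961). CCNE2 211814_s_at (−1.68, SE 0.26, adjusted p = 0.0764) and CDK6 224851_at (−1.28, SE 0.39), both called after induction, missed it as well. The CCND2 call was lost with the replicate block (adjusted p = 0.159), with hybridization centring (0.131), with poly-A centring (1), with separate spreads (0.0429) and by the gene mean (1). Those of CDK4 and CDK6 224848_at were lost with the block as well (adjusted p = 0.502 and 0.0759), and poly-A centring ended the calls of CDK4 and both CDK6 probe sets (adjusted p = 1 each). Separate spreads ended all of these and the call of CCND1 208711_s_at, so that CCND1 208712_at, CCNE2 205034_at and CDKN1A remained. Leaving out any single array other than mock replicate 2 or parental vehicle replicate 4 ended the CDK4 call, with adjusted p up to 0.0254. The call of CCND1 208711_s_at was kept only without parental doxycycline replicate 1, 3 or 4 or parental vehicle replicate 3 or 4, and that of CDK6 224848_at only without parental doxycycline replicate 3, 4 or 5, mock replicate 5 or parental vehicle replicate 1. Their adjusted p reached 0.0197 and 0.0219. Centring on the hybridization controls changed the split of all calls from 3842 lower and 3560 higher to 3492 and 1342, and centring on the poly-A controls to 1916 and 692.

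**Figure D3:**
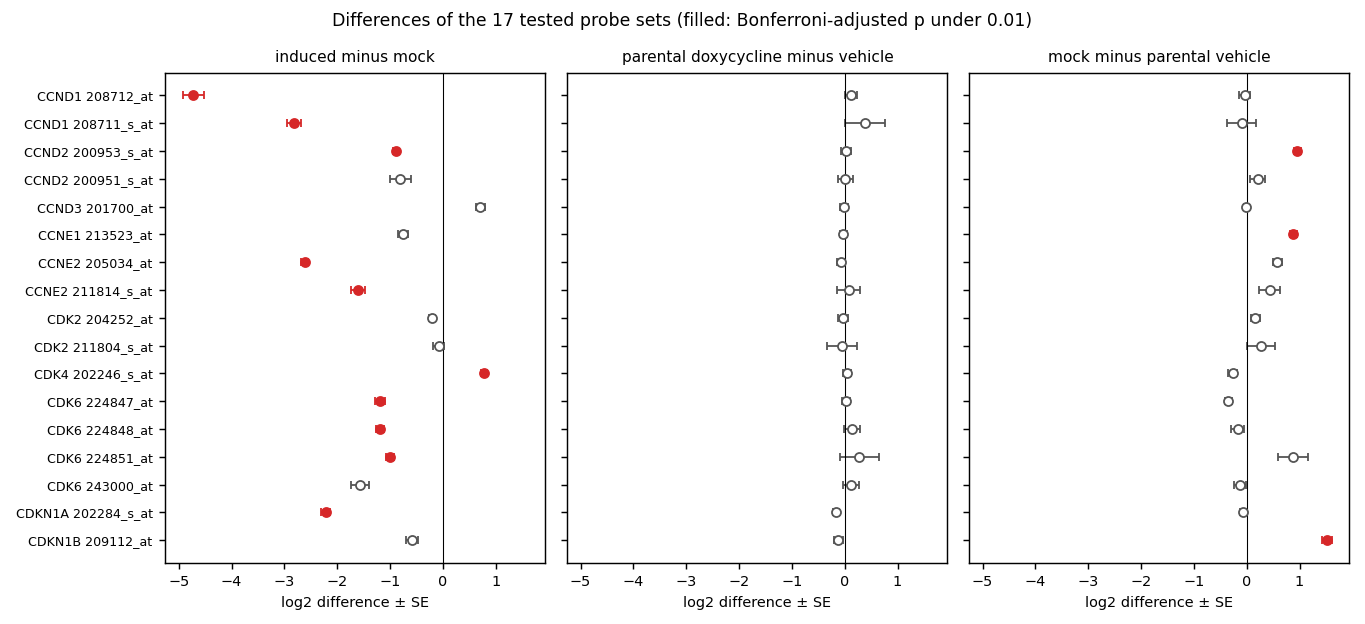
Log2 difference ± SE (horizontal axis) of the 17 tested probe sets in induced minus mock, parental doxycycline minus vehicle, and mock minus parental vehicle arrays, 5 arrays a group; filled points have a Bonferroni-adjusted p under 0.01. The middle panel has no filled point, and the mock arrays enter both the left and the right panel.

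The EGFP-ZFP36 line differed from the parental line without doxycycline too. Between mock and parental vehicle arrays 3 of the 17 probe sets were called, all higher in the mock arrays: CDKN1B, CCND2 and CCNE1. The shares of all tested probe sets called were 10.2% higher and 6.88% lower. Groups did not overlap for 6 of the 17, beside 58.5% of all. This comparison uses the same mock arrays as induced against mock, so an opposite sign in the 2 is not independent, and their values are only set side by side here. Per the study's methods, the 2 lines were also seeded at unlike dilutions and grown for unlike numbers of days before treatment. Line, passage history, seeding and days of growth cannot be told apart from the uninduced transgene.

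CDKN1B had the largest of these differences, at 1.52 (SE 0.09, adjusted p = 2.20e-04), a 2.87-fold higher level in mock arrays. CCND2 200953_s_at was 0.96 higher (SE 0.07, adjusted p = 0.00100) and CCNE1 213523_at 0.88 higher (SE 0.07, adjusted p = 0.00129). For CCND2 200953_s_at the parental vehicle arrays read 11.49, 11.64, 11.73, 11.38 and 11.59, a range that holds all 5 induced values. By this probe set mock arrays stood apart from the other 3 groups. The dimmer 200951_s_at differed by only 0.21 (SE 0.14) between the lines and was not called. Its mock arrays (6.03 to 6.68) overlapped the parental vehicle arrays (5.90 to 6.49), and its lowest group mean was that of induced arrays (5.57). For CCNE1 the mock arrays were the highest too, the call was lost without mock replicate 1, 4 or 5 or parental vehicle replicate 5 (adjusted p up to 0.0111), and both control centrings ended the CCND2 and CCNE1 calls (adjusted p from 0.439 to 1). The CDKN1B call held with the hybridization controls and was lost with the poly-A controls (adjusted p = 0.0250). With a separate spread for each group none of the 3 was called (adjusted p from 0.0230 to 0.201), and with the replicate block only CDKN1B was (adjusted p = 0.00289). With the poly-A centring all probe sets split into 412 lower and 1091 higher, against 1283 and 1902 without it.

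For the remaining members the lines were closer. CCND1 208712_at differed by −0.04 (SE 0.11), CCND3 by −0.02 (SE 0.05) and CDKN1A by −0.07 (SE 0.06), each with overlapping groups. CCNE2 205034_at was at 0.58 (SE 0.08, adjusted p = 0.528) and CDK6 224847_at at −0.34 (SE 0.07, adjusted p = 1), both without overlap. The CDK6 probe sets disagreed here, since 224851_at was at 0.87 (SE 0.28, adjusted p = 1) with parental vehicle arrays spread from 8.27 to 10.00. No direction is therefore given for CDK6 between the lines.

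The order of the 4 groups, by the brightest probe set, took several forms. For CCND1 and CDKN1A, induced arrays were lowest and the other groups could not be ordered beyond their spread. For CCNE2 the order was induced, then the 2 overlapping parental groups, then mock. For CDK6 induced arrays were lowest by 224847_at, and the mock and parental groups are not ordered, since the probe sets disagreed. CDK4 ran from mock through overlapping parental groups to induced, with the lowest parental vehicle array within the mock range. CDKN1B ran from the overlapping parental groups to induced and then mock. These orders are descriptions of 5 arrays a group.

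For each gene the tested probe set of another gene with the most similar profile was found by Pearson's r over the 20 arrays. The arrays fall into 4 groups that the genes share, so r mostly follows the group means. The closest profiles were FUNDC1 for CCND1 (r = 0.996), MYL12A for CCNE2 (0.995), NSL1 for CDKN1A (0.995), EFR3A for CDK6 (0.989), LZIC for CDKN1B (0.986), POLD1 for CDK4 (0.985), TNFRSF10D for CCND2 (0.979), ZFYVE27 for CCND3 (0.977), CDKN2B for CCNE1 (0.966) and EXOSC6 for CDK2 (0.872). The lowest of these belonged to CDK2, whose group means differed least. NSL1, for example, averaged 5.51 in induced and 8.31 in mock arrays, and CDKN2B, an inhibitor of CDK4 and CDK6, averaged 7.51 in induced, 9.53 in mock and 6.84 in parental vehicle arrays.

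The other genes of the G1/S pathway were taken from a list of 40, of which 38 had a probe set naming them alone (CDK3 and CDKN2C did not) and 36 were tested (CDKN1C and E2F4 were under the filter). By the brightest probe set, 13 fell, 10 rose and 13 did not pass after induction, beside 21.5% lower and 26.5% higher among all genes. Their median log2 difference was −0.19, against 0.20 over all tested genes. In the parental comparison none of the 36 was called.

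Cyclin A, CDK activation and CDK binding genes had 6 of 10 lower and 2 higher. MNAT1, the assembly factor of the CDK-activating kinase, fell from 9.63 ± 0.10 in mock to 6.30 ± 0.17 in induced arrays (−3.33, SE 0.09, adjusted p = 1.57e-08), the largest fall of the list. CCNA1, a cyclin A best known from the germ line, rose from 2.81 ± 0.36 to 6.0 ± 0.44 (adjusted p = 5.27e-04). Mock arrays were all under 4.5 there, so measured from 4.5 CCNA1 was at least 2.83-fold higher. CCNA2, the far brighter cyclin A transcript, went the other way, from 12.29 ± 0.09 in mock to 10.62 ± 0.11 in induced arrays. Its difference was −1.68 (SE 0.07, adjusted p = 1.27e-06). CCNH fell by 1.57 on the log2 scale (SE 0.07, adjusted p = 5.16e-06). CDC37, a co-chaperone of kinases that include CDK4, was the other riser (1.07, SE 0.07), and CDK7, the kinase that MNAT1 helps to assemble, was at −0.05 (SE 0.05). CCNA1 and MNAT1 thus lay at opposite ends of the same group.

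Of 3 tested inhibitors from this list, CDKN2B fell by 2.01 on the log2 scale (SE 0.10, adjusted p = 1.49e-05) and CDKN2D, which also binds CDK4 and CDK6, fell (adjusted p = 0.00762). CDKN2D read under 4.5 on all induced arrays, so it was at least 1.91-fold lower. CDKN2A was at −0.13 (SE 0.07, adjusted p = 1).

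Among 10 pocket proteins, E2F and DP factors, 3 fell and 3 rose. RB1, the retinoblastoma gene that the G1 kinases act on, fell from 13.42 ± 0.18 to 10.75 ± 0.31 (−2.67, SE 0.14, adjusted p = 3.76e-05). TFDP1, the dimer partner of E2F factors, fell from 13.39 ± 0.09 to 10.71 ± 0.15 (−2.68, SE 0.08, adjusted p = 5.97e-08). TFDP2, a related partner, rose by 1.85 (SE 0.07, adjusted p = 1.37e-06), and E2F2 rose by 2.13 (SE 0.06, adjusted p = 2.83e-08). RB1 and its relative RBL2 (−1.14, SE 0.08) thus fell, and the 2 DP partners moved in opposite directions. E2F6 was the remaining riser (0.51, SE 0.05), and E2F1 was at 0.39 (SE 0.11, adjusted p = 1).

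In the ubiquitin-dependent turnover of cyclins and inhibitors, 2 of 13 fell and 5 rose. FBXO31, an F-box protein known to direct cyclin D1 to degradation, rose by 1.98 (SE 0.12, adjusted p = 1.76e-04). AMBRA1, a ligase adaptor for D-type cyclins, rose by 1.63 (SE 0.10), and FBXW7, which recognises cyclin E, by 0.77 (SE 0.05). CUL1 and DDB1 were the other risers, and GSK3B (−1.30, SE 0.07) and CUL4A (−1.29, SE 0.11) fell. SKP2, the F-box protein that recognises CDKN1B, was at −0.12 (SE 0.06, adjusted p = 1). CDC37, CDKN2D, RBL2, E2F6, AMBRA1, FBXW7 and the others beyond the 4 largest falls and 4 largest rises of the list were named after their values were seen.

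**Figure D4:**
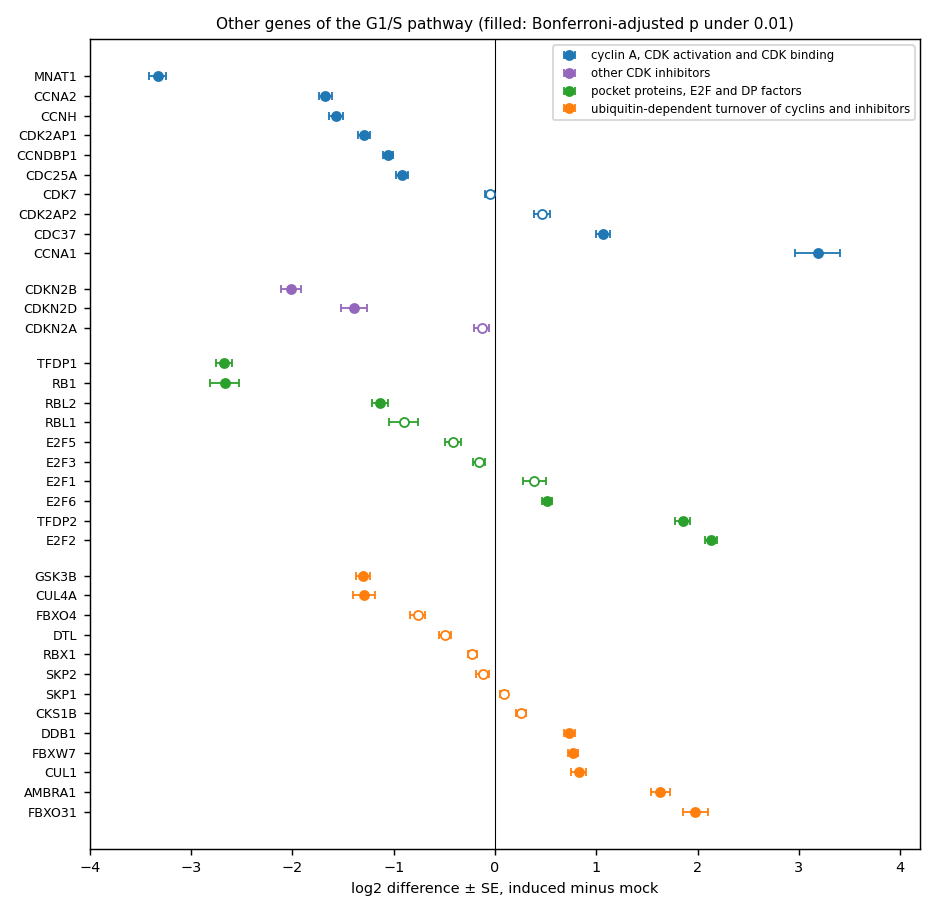
Log2 difference ± SE, induced minus mock (horizontal axis), of the 36 tested genes of the pathway list, coloured by role, 5 arrays a group; filled points have a Bonferroni-adjusted p under 0.01. The values run from −3.33 for MNAT1 to 3.19 for CCNA1, with 13 called lower and 10 called higher.

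Between mock and parental vehicle arrays, 4 of the 36 were called lower and 9 higher, beside 8.81% and 11.3% of all genes by their brightest probe set. CDKN2B was 2.69 higher in mock arrays (adjusted p = 4.40e-06) and RB1 1.30 higher (adjusted p = 0.00113). Those lower were TFDP2, SKP2, CDC25A and DDB1. These values share the mock arrays with the differences after induction.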

How the data were processed

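Per the labels GCRMA was used for normalization, in an unstated version, and the authors deposited 1 table of log2 values of 50441 probe sets on 20 arrays, mapped to samples by the labels. Gene names came from the platform's annotation, checked against the RefSeq gene table: 38070 name 1 gene, 1423 several, 10886 none and 62 are controls. The 38070 were filtered at a mean above 4.5 in at least 1 group, which left 18639. Each pair of groups was fitted with limma 3.58.1 (lmFit, eBayes, R 4.3.3) on its 10 arrays, and the interaction on all 20, with a Bonferroni-adjusted p under 0.01. Filter and threshold follow the study, whose own test is unstated in the sources used here. If all arrays of the lower group lay under 4.5, a fold is measured from 4.5 and is a bound. Quality values used the exact permutation test of 5 against 5 arrays, whose smallest p is 0.00794. The labels call the arrays biological replicates, and the methods give independent days and passages, with treated and untreated cells handled together on a day. Whether a replicate number marks a day is unstated, so the block is an alternative. Correlations of arrays within a group lay between 0.982 and 0.996, and any pair had at most 1.50% of the values above 5 in common. The number of arrays limits the precision.

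Named genes are all members, the 4 largest called falls and 4 largest called rises of the pathway list after induction, the gene most alike to each member over 20 arrays, and the markers. The members and lists were chosen with earlier results of these data known. Alternatives were the replicate block, a separate spread for each group, Benjamini-Hochberg adjustment, no filter and a filter at 6, centring on hybridization or poly-A controls, other handling of probe sets, all 20 arrays in 1 model, and each array left out. The fit was tested on simulated data. The PAR-CLIP site sequences were copied from the study's site list, held in part, with any CCNE2 sites left out. Summaries and figures used Python 3.11.15 with scipy 1.17.1, pandas 2.3.3, matplotlib 3.10.9 and numpy 2.4.6.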

Additional observations from a re-analysis of the deposited data

Results flagged for a closer look

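In 3 of the 68 groups of 5 arrays looked at, 1 array stood far from the rest of its group, where chance gives about 1 in 20. CCNE1 213523_at read 10.18 in mock replicate 3, below the other mock arrays at 10.39 to 10.45. CDK2 204252_at read 10.94 in parental vehicle replicate 4, where the other arrays read 11.32 to 11.44. CDK6 224848_at read 10.72 in parental vehicle replicate 1, against 10.05 to 10.23 in the others.

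The difference made by doxycycline was not the same in both lines, by the interaction term in limma, for 8 probe sets. The EGFP-ZFP36 line had the lower value for CCND1 208712_at (−4.84 on the log2 scale), CCND1 208711_s_at (−3.20), CCNE2 205034_at (−2.54), CDKN1A 202284_s_at (−2.06), CDK6 224848_at (−1.33), CDK6 224847_at (−1.22) and CCND2 200953_s_at (−0.91). It had the higher value for CDK4 202246_s_at (0.73).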

How the results depend on the processing

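After induction 10 member probe sets were called (9 lower, 1 higher). The count was 4 (3 lower) with a separate spread for each group, 16 (14 lower, 2 higher) with Benjamini-Hochberg adjustment, 5 (5 lower, 0 higher) once _s_at and _x_at probe sets were dropped, 6 (5 lower) by the brightest probe set and 5 (4 lower) by the gene mean. The 1 higher became 0 under both control centrings and 2 with all 20 arrays in 1 model. Leaving out 1 array gave 8 to 9 calls, 7 to 8 of them lower. Parental calls stayed at 0 under all alternatives.

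Between mock and parental vehicle arrays the 3 calls (3 higher, 0 lower) became 0 with separate spreads, 7 (2 lower, 5 higher) with Benjamini-Hochberg adjustment, 1 without the filter, 1 with hybridization and 0 with poly-A centring, and 2 to 3 with 1 array left out. The interaction's 8 calls (7 lower, 1 higher) became 3 (3 and 0), 15 (13 and 2), 5 without the filter (0 higher), 4 (4 and 0) with poly-A centring, 4 (4 and 0) without _s_at and _x_at probe sets, 4 (3 lower) by the gene mean and 5 to 7 with 1 array left out (5 to 7 lower, 0 to 1 higher), and 0 were higher with hybridization centring.

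The pathway list's 23 calls after induction (13 lower, 10 higher) became 9 (6 and 3) with separate spreads, 5 were higher with poly-A centring, and leaving out 1 array gave 19 to 21 (11 to 13 lower, 8 to 9 higher). Its 13 calls between the lines (4 lower, 9 higher) became 2 (1 and 1) with separate spreads, 31 (15 and 16) with Benjamini-Hochberg adjustment, 7 without the filter (4 higher), 7 with hybridization centring (4 higher), 1 (0 and 1) with poly-A centring and 6 to 14 with 1 array left out (2 to 5 lower, 4 to 9 higher); 8 were lower with all 20 arrays in 1 model. The poly-A controls vary between arrays, and limma then gave all probe sets 1 common spread.

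The methods pair treated and untreated cells by day, but whether a replicate number marks a day is unstated. Same-numbered induced and mock arrays correlated by 0.01 to 0.21 in their deviations, positive in 5 of 5 cases, 3 of them over 0.1 and 1 best with its own number, so pairing by number was not settled. With the replicate block, member calls were 5 after induction (5 lower, 0 higher), 1 between the lines (1 higher) and 5 for the interaction (0 higher), and pathway calls were 15 (6 higher) and 1 (0 lower, 1 higher).

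Signs turned only for differences that were not called. These were CCND1 between the lines with 1 array left out (−0.126 to 0.0185 for 208712_at, positive only without parental vehicle replicate 3, and −0.311 to 0.107 for 208711_s_at, positive only without parental vehicle replicate 4), CDK6 between the lines by the gene mean (0.0339) and the CDK2 211804_s_at interaction with 1 array left out (−0.177 to 0.210). Among single values, 1006 kept direction and side of the threshold, 118 lost the call and 27 gained it. The cause of these changes was not tested.

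Over all probe sets, 4072 were lower and 4126 higher after induction. These were 7258 and 8675 with Benjamini-Hochberg adjustment, 2388 and 1964 with the block, and 1803 and 1928 with separate spreads. Between the lines, 1283 and 1902 became 6192 and 6980, 269 and 652, and 454 and 684, then 803 and 1261 without the filter, 412 and 1091 with poly-A centring and 2381 and 2973 with all 20 arrays. The interaction's 3842 and 3560 became 6705 and 7753 with Benjamini-Hochberg adjustment, 2560 and 2116 with separate spreads, 3492 and 1342 with hybridization centring and 1916 and 692 with poly-A centring. Dim probe sets near 4.5 limit the size of a fold, as for CCND1.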
